A study of Oryza sativa Japonica Group with 10 samples.

Results

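The CESA genes encode the catalytic subunits of cellulose synthase, and 9 of them, CESA1 to CESA9, were followed here in root tips and mature roots of rice seedlings. They were taken by their locus identifiers, all carry a deposited description that begins with CESA, and they are 9 of the 33486 rows of the count table. All 9 had enough counts to be tested, as did 19234 rows in total. A further row described as CESA10, with 2 exons and 739 bases of exon, had 15 counts over all libraries and was not tested.

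Cellulose synthase works at the plasma membrane as a rosette-shaped complex of several CESA proteins, which spins glucan chains from UDP-glucose into a microfibril. One set of CESA proteins makes the cellulose of the primary wall, the thin wall that growing cells stretch. In rice, CESA4, CESA7 and CESA9 make the cellulose of the secondary wall, the thick wall laid down after growth in xylem vessels and fibres, and loss of any of them gives brittle culms. CESA1, CESA2, CESA3, CESA5, CESA6 and CESA8 are treated here as primary-wall members. These roles are background and were not measured.

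Polyadenylated RNA came from cv. Nipponbare (GSOR-100), a japonica cultivar, and no group carried a transgene or a chemical treatment according to the labels. Germination took 5 days without light. Plants went into Hoagland solution at 12 days of age, roots and shoots alike in the light, and were harvested after 2 or 6 days there. A root tip library covers the meristem and the zone of elongation, whereas a mature root library covers the rest of the root system and so many cell types. Each library was a pool of 6 plants, with 3 tip and 2 mature root libraries on each day. Plant age, days in hydroponics and sampling occasion cannot be told apart.

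Libraries held 986907 to 3286439 counts, and 3 counts corresponded to 0.809 to 2.69 CPM (counts scaled to a common library size, after correction between libraries by the TMM method). The tissue labels were set against marker descriptions. All 13 tested chlorophyll A-B binding protein genes, which mark green tissue, were lower in the tip. The 17 rows of that list summed to 44.2 to 136 CPM in the tips and 2066 to 6141 CPM in mature roots, with 3 of them at 0 in every tip library. The 31 laccase and xylem cysteine proteinase rows, which mark maturing xylem, had 7 of 22 tested members lower in the tip and none higher, with 5 rows at 0 in every tip library. Of 17 rows for suberised cell layers, 4 of 8 tested were lower in the tip. The 52 rows for dividing cells were taken by descriptions of minichromosome maintenance proteins, proliferating cell nuclear antigen and cyclins. Any row described as a putative cyclin is included, so the list need not stand for dividing cells alone. The 52 rows overlapped in their sums, at 1108 to 1398 CPM in tips and 794 to 1213 CPM in mature roots. Of 40 with a test, 3 were called up and 3 down in the tip. In sign, 30 of the 40 were higher in the tip, beside 51.7% of all tested rows. Their median log2 fold change was 0.40, beside 0.05. The highest mature root sum, in day 2 replicate 2, included 188 CPM of 1 cyclin row. That row had 1.9 to 10.5 CPM in the other mature roots. The 8 root cap rows had 1 of 7 tested members called higher in the tip over both days. All 7 were positive, with a median log2 fold change of 2.50, and on day 6 alone 6 were. Their sums overlapped between the tissues and varied widely among tips. They were 26.4 to 374 CPM in tips of day 2 and 43.1 to 413 CPM in tips of day 6. Mature roots had 6.67 to 14.5 CPM on day 2 and 46.9 to 95.5 CPM on day 6. The highest sums were those of root tip day 6 replicate 3 and root tip day 2 replicate 1. Over all tested rows, 9.02% were called lower and 3.18% higher in the tip over both days.

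CESA9 was the member called between the tissues in the contrast that averages both days, lower in the tip by 3.44-fold. That average joins 2 unlike days. On day 6 CESA9 was 12.2-fold lower in the tip, and on day 2 it showed no difference (log2 0.04, SE 0.56). Without mature root day 6 replicate 1 the average fell from log2 -1.78 to -1.30. CESA7 and CESA4 also had lower means in the tip but did not pass the test. None of the 6 primary-wall members passed it in either direction. Over both days 1 of the 9 members was called lower, beside 9.02% of all tested rows, and 0 were called higher, beside 3.18%. For day 6, 1 of 9 was called lower and 0 higher, beside 5.75% and 1.33% of all rows. For day 2, 0 were called in either direction, beside 1.07% lower and 0.0832% higher. With 9 members, 1 call is near the background of the table, so the count itself says nothing particular about the family. Calls are Benjamini-Hochberg adjusted p-values under 0.05 from edgeR's quasi-likelihood test over all 19234 rows. Close relatives such as the CESA genes can share reads, which makes values of single members uncertain.

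**Figure D1:**
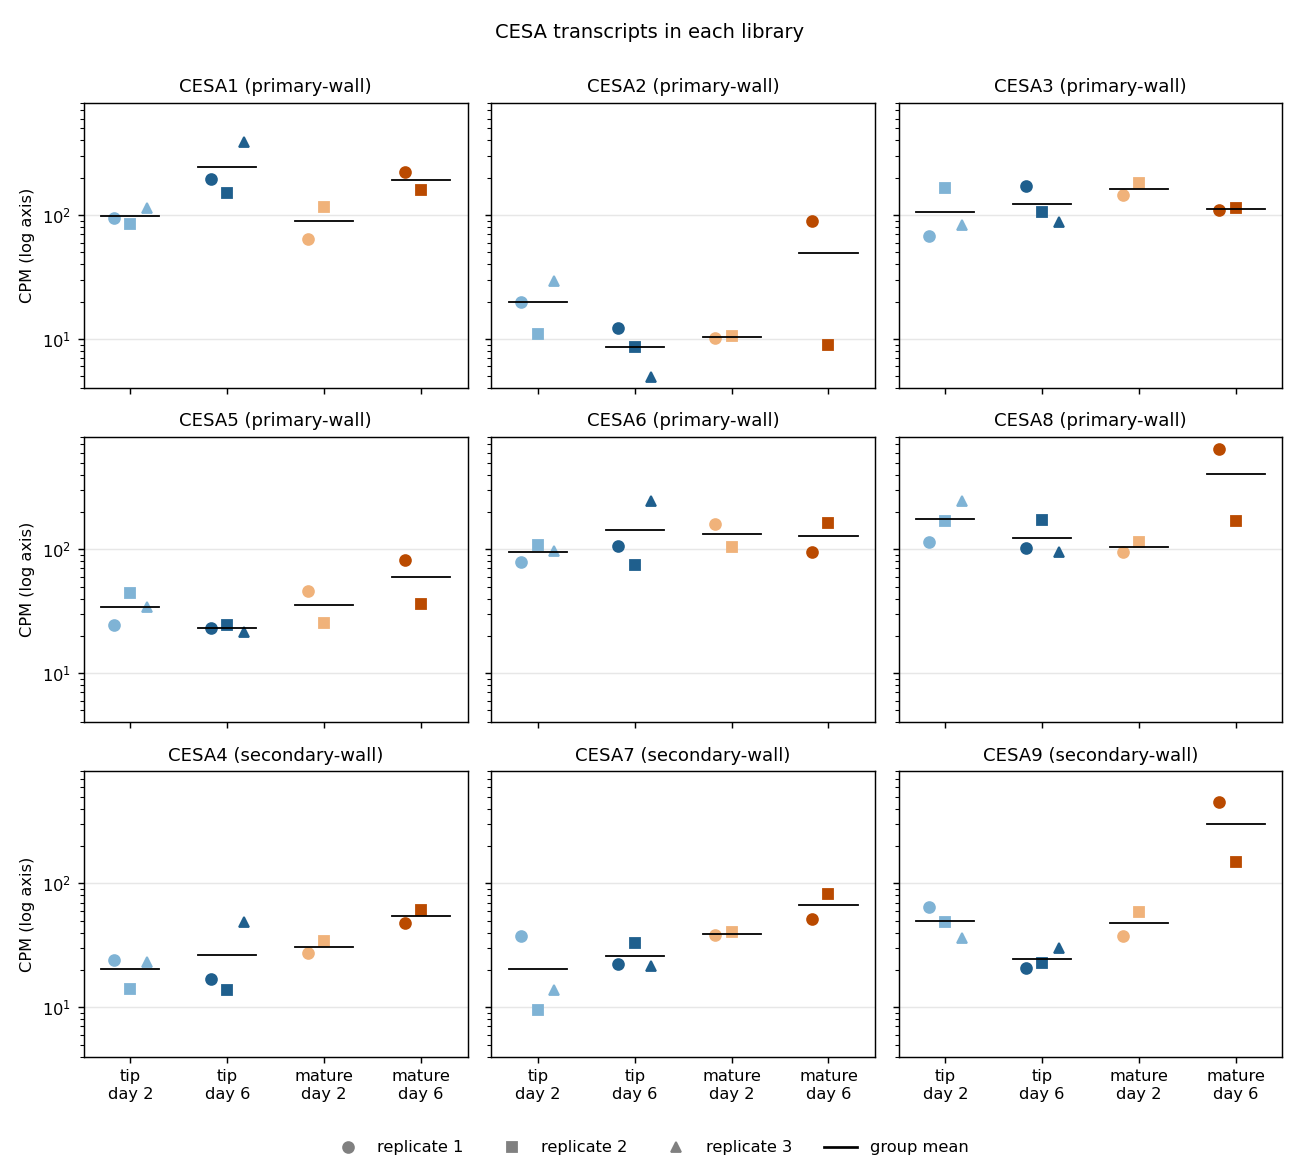
CPM of each CESA gene (vertical log axis) in every library, by tissue and day; symbols are replicate pools and lines are group means. CESA9 stands at 149.7 and 452 CPM in mature roots of day 6 and between 20.8 and 64.7 CPM in all tip libraries, while the tip and mature root libraries of CESA3 overlap on both days, over 68.2 to 182 CPM.

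Among the secondary-wall members, CESA9 (LOC_Os09g25490) had 64.7, 48.4 and 36.4 CPM in the 3 tip libraries of day 2 and 20.8, 22.7 and 30.1 CPM in those of day 6. It had 37.5 and 59.0 CPM in mature roots of day 2 and 452 and 149.7 CPM in those of day 6. The tissues overlapped on day 2 and lay far apart on day 6, when both mature root libraries were higher than any other library. The log2 fold change of tip over mature root was -1.78 (SE 0.39) over both days, with an adjusted p of 0.0129 in edgeR's quasi-likelihood test. It was 0.04 (SE 0.56) on day 2 and -3.61 (SE 0.58) on day 6, with edgeR adjusted p of 0.98 and 0.00759. Leaving out mature root day 6 replicate 1 (log2 -1.30, adjusted p = 0.111, edgeR) or mature root day 2 replicate 2 (log2 -1.60, adjusted p = 0.0628, edgeR) ended the call over both days. It was also lost with the replicate number as a block (log2 -1.75, adjusted p = 0.0562, edgeR), and over all alternatives the adjusted p ran from 3.70e-04 to 0.111. On day 6 it was lost without mature root day 6 replicate 1 alone of the settings tried, at log2 -2.63 and an edgeR adjusted p of 0.0897.

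CESA7 (LOC_Os10g32980) had 37.7, 9.53 and 13.9 CPM in tips of day 2 and 22.3, 33.2 and 21.6 CPM in tips of day 6. In mature roots it had 38.1 and 40.2 CPM on day 2 and 51.8 and 82.3 CPM on day 6. Every tip library was lower than every mature root library, though the highest tip library, at 37.7 CPM, lay just under the lowest mature root library, at 38.1 CPM. Such separation occurred in 7.34% of all tested rows in this direction and in 3.87% in the other, and CESA7 was the 1 member with it. Its log2 fold change over both days was -1.17 (SE 0.44) and did not pass (adjusted p = 0.103, edgeR). It passed with DESeq2 (adjusted p = 0.0440) and also without root tip day 2 replicate 1 (log2 -1.55, adjusted p = 0.0359, edgeR), the tip library in which CESA7 was highest.

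CESA4 (LOC_Os01g54620) had 24.2, 13.9 and 23.0 CPM in tips of day 2 and 16.9, 13.7 and 48.9 CPM in tips of day 6. It had 27.3 and 34.4 CPM in mature roots of day 2 and 48.2 and 61.5 CPM in those of day 6. A single tip library, root tip day 6 replicate 3, reached the mature root values, and the other tip libraries lay below them. The log2 fold change over both days was -0.82 (SE 0.44) and did not pass (adjusted p = 0.241, edgeR). On single days CESA4 and CESA7 stood at log2 -0.59 (SE 0.63) and -0.95 (SE 0.63) on day 2, and at -1.04 (SE 0.62) and -1.38 (SE 0.62) on day 6, none of which passed.

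The primary-wall members gave no call between the tissues over both days. CESA8 (LOC_Os07g10770), the member with the most counts, had 115, 169 and 245 CPM in tips of day 2 and 102, 173 and 94.7 CPM in tips of day 6. In mature roots it had 94.6 and 114 CPM on day 2, below every tip library of that day, and 638 and 168 CPM on day 6. The high value belongs to mature root day 6 replicate 1, and the other pool of that group lay within the range of the tips. The log2 fold change was -0.47 (SE 0.40) over both days and -1.71 (SE 0.57) on day 6, with edgeR adjusted p of 0.47 and 0.0881. Without mature root day 6 replicate 1 these became 0.15 and -0.47.

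CESA2 (LOC_Os03g59340) followed CESA8 at a lower level. It had 19.8, 11.0 and 29.4 CPM in tips of day 2, 12.3, 8.60 and 4.94 CPM in tips of day 6, and 10.2 and 10.6 CPM in mature roots of day 2. In mature roots of day 6 it had 89.8 CPM in replicate 1 and 8.90 CPM in replicate 2. Its log2 fold change was -0.79 (SE 0.59) over both days and -2.52 (SE 0.83) on day 6 (adjusted p = 0.401 and 0.0854, edgeR). Without mature root day 6 replicate 1 these became 0.43 and -0.09, so the sign over both days turned with that library. On day 6 CESA2 and CESA8 passed with DESeq2 (adjusted p = 0.0282 and 0.0395) and with edgeR when rows of low count were kept (adjusted p = 0.0203 and 0.0316). All rows called lower on day 6 rose from 1106 to 1836 and 2041 under these settings. Without mature root day 6 replicate 2 the log2 fold changes were -3.40 and -2.38. That fit leaves the group with replicate 1 alone, the pool in which both genes were high. On day 2 the tips of both CESA2 and CESA8 lay above mature roots without overlap, which 14.7% of all rows did. Both margins were narrow, at 11.0 against 10.6 CPM for CESA2 and 115 against 114 CPM for CESA8.

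CESA5 (LOC_Os03g62090) had 24.2, 44.7 and 34.2 CPM in tips of day 2 and 23.1, 24.2 and 21.6 CPM in tips of day 6. It had 45.7 and 25.2 CPM in mature roots of day 2 and 82.2 and 36.4 CPM in those of day 6. The tissues overlapped on day 2 and not on day 6, as for CESA9. CESA7 was separated on both days. On day 6, 22.8% of all rows had every tip below every mature root library. Tips lay above mature roots without overlap on day 6 in 19.5% of rows and in 0 members, and below them on day 2 in 18.5% of rows and in CESA4 and CESA7. The log2 fold change on day 6 was -1.36 (SE 0.56) and did not pass (adjusted p = 0.154, edgeR), and over both days it was -0.70 (SE 0.40).

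CESA1 (LOC_Os05g08370) had 94.3, 85.0 and 114 CPM in tips of day 2, 194, 149 and 387 CPM in tips of day 6, 63.5 and 117 CPM in mature roots of day 2, and 224 and 161 CPM in mature roots of day 6. In both tissues every library of day 6 was higher than every library of day 2, as 5.9% of all rows were in the tip and 22% in mature root. The tissues overlapped on both days, and the log2 fold change of tip over mature root was 0.23 (SE 0.36), the single positive value of the 9 members.

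CESA3 (LOC_Os07g24190) and CESA6 (LOC_Os07g14850) had overlapping tissues on both days as well. CESA3 had 68.2, 166 and 83.4 CPM in tips of day 2, 170.1, 107 and 88.5 CPM in tips of day 6, 145 and 182 CPM in mature roots of day 2, and 109.9 and 114 CPM in those of day 6. CESA6 had 78.1, 108 and 97.3 CPM, then 107, 75.0 and 243 CPM in the tips, and 159 and 105 CPM, then 95.1 and 161 CPM in mature roots. Their log2 fold changes over both days were -0.25 (SE 0.36) and -0.17 (SE 0.39), smaller than their standard errors.

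**Figure D2:**
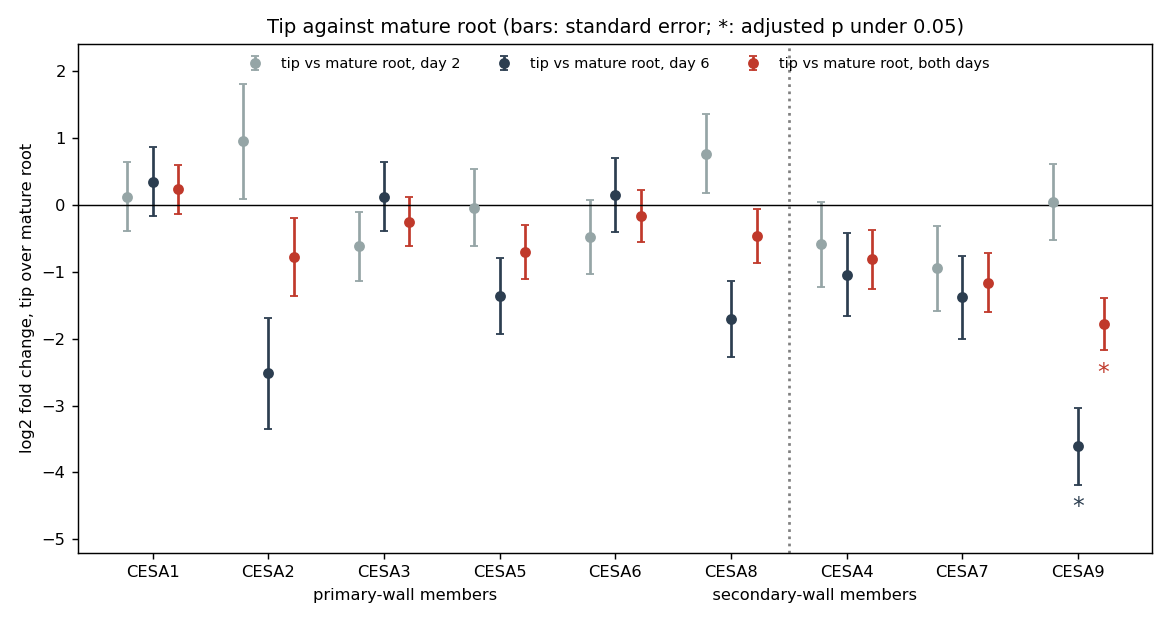
Log2 fold change of tip over mature root for each CESA gene on day 2, on day 6 and over both days, with standard errors; asterisks mark adjusted p-values under 0.05 in edgeR's quasi-likelihood test. CESA9 carries both marks, at -3.61 on day 6 and -1.78 over both days.

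In direction without regard to the test, 8 of the 9 members had a negative log2 fold change over both days, beside 48.3% of all rows. The median was -1.17 for the 3 secondary-wall members, -0.36 for the 6 primary-wall members and 0.05 for all tested rows. Without mature root day 6 replicate 1, CESA2 and CESA8 turned positive, to 0.43 and 0.15, beside CESA1 at 0.34. The count of negative members and the primary-wall median thus rest in part on that library. On day 2 the medians were -0.59, 0.04 and 0.00, with 5 of 9 members negative beside 50% of all rows. On day 6 they were -1.38, -0.62 and 0.06, with 6 of 9 negative beside 48.2%. In these bulk samples, fewer cells of a type and less RNA per cell cannot be told apart. The 31 rows of the xylem list summed to 342 to 768 CPM in tips, 503 and 618 CPM in mature roots of day 2 and 1607 and 1014 CPM in mature roots of day 6. Both this sum and CESA9 were highest in mature roots of day 6, but among the tips the sum was highest in day 6 replicate 1 (768 CPM), where CESA9 was lowest. The part of xylem in the CESA values was not tested.

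The share of CESA counts that belonged to CESA4, CESA7 and CESA9 does not depend on how libraries are scaled. It was 24.1%, 10.9% and 10.8% in the tips of day 2 and 8.98%, 11.5% and 10.7% in those of day 6. In mature roots it was 16.5% and 19.5% on day 2 and 30.8% and 31.1% on day 6. Of the 6 tip libraries, 5 lay below all mature root libraries, and root tip day 2 replicate 1, the library with the fewest counts, lay between the mature roots of day 2 and day 6. Its exact 95% binomial interval, which covers counting error only, was 20.7% to 27.7%, above the interval of either other tip library of that day. The group means were 15.3% ± 7.61 (SD, n = 3) and 10.4% ± 1.28 (SD, n = 3) in tips and 18.0% ± 2.06 (SD, n = 2) and 31.0% ± 0.217 (SD, n = 2) in mature roots, on day 2 and day 6. Per length of exon the share was 9.86% to 23.8% in tips and 18.8% to 31.2% in mature roots. The 9 genes together took 0.0594% to 0.0902% of all counts in tips, 0.0656% and 0.0705% in mature roots of day 2, and 0.151% and 0.106% in mature roots of day 6.

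**Figure D3:**
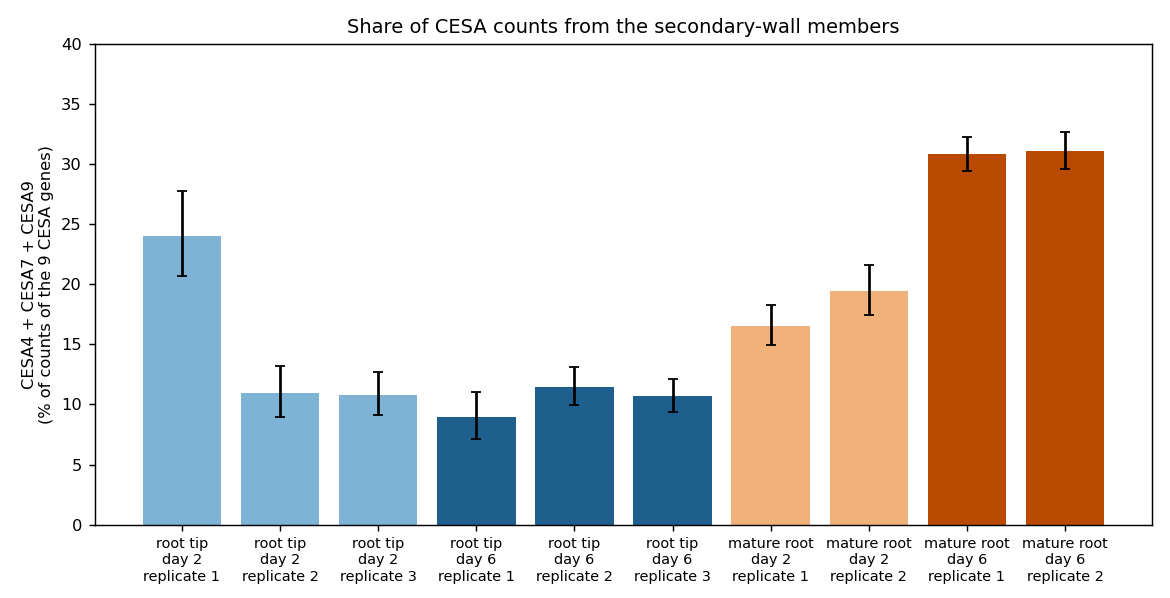
Percent of the counts of the 9 CESA genes that came from CESA4, CESA7 and CESA9 in each library, with exact 95% binomial intervals for counting error. Mature roots of day 6 stand at 30.8% and 31.1%, and 5 of the 6 tip libraries between 8.98% and 11.5%.

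Both mature root pools of day 6 reached nearly the same share of counts, with different contributions of the members. Per length of exon their shares were 24.8% and 31.2%, the former close to root tip day 2 replicate 1 at 23.8%. In replicate 1, CESA9 alone gave 25.2% of the CESA counts, CESA4 2.69% and CESA7 2.89%. In replicate 2, CESA9 gave 15.9%, CESA4 6.52% and CESA7 8.73%. Per length of exon, CESA9 stood at 4.55 times CESA7 in replicate 1 and 0.949 times in replicate 2. That ratio ran from 0.356 to 2.65 over the tip libraries and was 0.513 and 0.767 in mature roots of day 2. CESA4 and CESA7 kept closer to each other in mature root, where the ratio of CESA4 to CESA7 per length was 0.736 to 0.957 in all 4 libraries. In tips it ran from 0.423 to 2.33, with counts of 13 to 109 for each gene behind it. The exon lengths used are 6852 bases for CESA9, the longest of the 9 members, 3575 for CESA7 and 3479 for CESA4. Levels and ratios per length rest on these deposited lengths.

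Levels were ordered per length, as CPM per kilobase of exon. In tips of day 2 the order was CESA8, CESA1, CESA3, CESA6, CESA5, CESA9, CESA4, CESA7 and CESA2, from 43.8 ± 16.3 (SD, n = 3) for CESA8 to 4.03 ± 1.85 (SD, n = 3) for CESA2. In this order the libraries of neighbours overlapped except between CESA8 and CESA1 and between CESA6 and CESA5. In tips of day 6 CESA1 led with 59.8 ± 31.0 (SD, n = 3), followed by CESA8, CESA3, CESA6, CESA4, CESA7, CESA5, CESA9 and CESA2. The neighbours down to CESA7 overlapped there, and the last 3 steps did not. In mature roots of day 2 the order was CESA3, CESA8, CESA1, CESA6, CESA7, CESA4, CESA5, CESA9 and CESA2, with CESA3 at 30.3 ± 4.72 (SD, n = 2) and no overlap between CESA6 and CESA7, CESA7 and CESA4, or CESA9 and CESA2. In mature roots of day 6 CESA8 stood first at 100.2 ± 82.6 (SD, n = 2), then CESA1, CESA9, CESA3, CESA6, CESA7, CESA4, CESA5 and CESA2, and of these neighbours CESA9 and CESA3 alone did not overlap. CESA9 thus ranked sixth, eighth and eighth in the first 3 groups and stood at 43.9 ± 31.2 CPM per kilobase (SD, n = 2) in mature roots of day 6, and CESA2 had the lowest mean in all 4 groups.

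Between the days, no row of the table was called in the tip or in mature root by edgeR's quasi-likelihood test, and so no CESA gene was, beside 0% of all rows. At an unadjusted p under 0.05 there were 2063 rows for the tip and 2072 for mature root. DESeq2 called 48 rows higher and 59 lower on day 6 in the tip, and 260 higher and 117 lower in mature root. Among the latter was CESA9, at log2 2.68 (adjusted p = 0.00596, DESeq2), and edgeR called it when rows of low count were kept (adjusted p = 0.0212). In edgeR's fit CESA9 had log2 2.64 (SE 0.65) in mature root, day 6 over day 2, with an adjusted p of 0.274, and -1.01 (SE 0.51) in the tip, with an adjusted p of 0.495. In the tip, CESA9 and CESA5 had all 3 libraries of day 6 below all 3 of day 2, as 5.66% of all rows had, CESA5 by a narrow margin at 24.2 CPM. For CESA9 both mature root libraries of day 6 lay above both of day 2. In mature root 5 of the 9 members separated upward in this way, CESA1, CESA4, CESA7, CESA8 and CESA9, beside 22% of all rows, and CESA3 separated downward, beside 20.8%. CESA8 and CESA2 had log2 1.95 (SE 0.65) and 2.23 (SE 0.94) in mature root (edgeR adjusted p = 0.331 and 0.41). When mature root day 6 replicate 1 was left out, CESA9 became 1.67, CESA8 0.73 and CESA2 -0.19. CESA4 and CESA7 had 0.83 (SE 0.69) and 0.78 (SE 0.69) in mature root and 0.38 (SE 0.58) and 0.35 (SE 0.58) in the tip. CESA1 had log2 1.31 (SE 0.47) in the tip, with an edgeR adjusted p of 0.429 and an unadjusted p of 0.0149.

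The change of the tissue difference between days was tested as well. No row passed in edgeR's quasi-likelihood test, with 1821 rows at an unadjusted p under 0.05, and DESeq2 called 33 rows higher and 64 lower. CESA9 had log2 -3.65 (SE 0.82, unadjusted p = 7.12e-04, adjusted p = 0.513, edgeR), and DESeq2 called it, at log2 -3.71 (adjusted p = 0.00987), as did edgeR with rows of low count kept (adjusted p = 0.0115). CESA2 and CESA8 had -3.47 (SE 1.21) and -2.47 (SE 0.83), and CESA4 and CESA7 -0.45 (SE 0.90) and -0.43 (SE 0.90), none of which passed. Leaving out mature root day 6 replicate 1 moved CESA9 to -2.67, CESA2 to -1.05 and CESA8 to -1.24. Whether the tissue difference of CESA9 changed between the days thus depended on the test and the filter.

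Likeness of profiles over the 10 libraries was measured as the root mean square difference of log2 CPM, centred for each gene, over the 36 pairs of members. The closest pairs were CESA5 with CESA8 (0.52) and CESA2 with CESA8 (0.57), all primary-wall members, followed by CESA4 with CESA6 (0.58), a secondary-wall with a primary-wall member. CESA4 and CESA7 had rank 5 (0.66). CESA9 was nearest to CESA8 (0.88) and farther from CESA4 (0.98) and CESA7 (1.05). In mature root day 6 replicate 1 CESA2 was 10.1 times, CESA8 3.80 times, CESA9 3.02 times and CESA5 2.26 times as high as in replicate 2 of its group, whereas CESA4, CESA6 and CESA7 were at 0.784, 0.590 and 0.630 times. A ratio of at least 3 between these pools occurred in 8.67% of all tested rows, and in 3 of the 9 members.

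**Figure D4:**
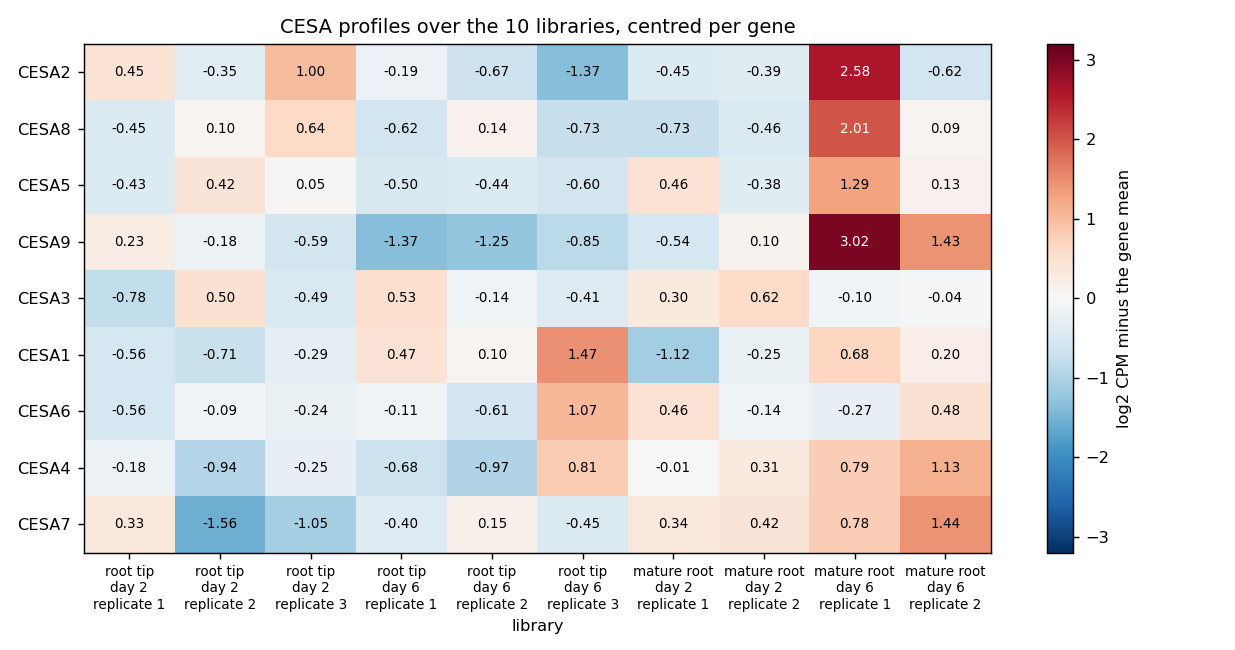
Log2 CPM of each CESA gene in each library minus that gene's mean over the 10 libraries (colour and printed value), with genes ordered by eye after the values were seen. CESA2, CESA8 and CESA9 are at 2.58, 2.01 and 3.02 in mature root day 6 replicate 1, where CESA6 is at -0.27, and CESA1, CESA6 and CESA4 are at 1.47, 1.07 and 0.81 in root tip day 6 replicate 3.

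Outside the family, 12827 described rows of at least 10 CPM were compared with the mean profile of each set. Nearest to that of CESA4, CESA7 and CESA9 were the leucine rich repeat gene LOC_Os04g51580 (root mean square difference 0.28 on the log2 scale), LOC_Os01g63690 described as hs1 (0.30), the glycosyltransferase gene LOC_Os07g46380 (0.31), LOC_Os11g40590 with a DUF1399 domain (0.31), the protein phosphatase 2C gene LOC_Os03g60650 (0.32) and LOC_Os12g01100, a hypothetical protein (0.33). The median over all candidates was 1.14. LOC_Os04g51580 had 30.0 to 61.1 CPM in tips and 41.6 to 115 CPM in mature roots. Nearest to the primary-wall mean were the tubulin gene LOC_Os03g51600-ext (0.20), the dnaJ gene LOC_Os04g31940 (0.21) and LOC_Os07g38280, described as an insulin-degrading enzyme (0.23). They were followed by the transcription elongation factor gene LOC_Os07g43730-ext (0.24), the peroxidase gene LOC_Os08g42030-ext (0.24) and the sucrose synthase gene LOC_Os03g28330 (0.26), beside a median of 0.87. The primary-wall mean lay between -0.39 and 0.11 (centred log2 CPM) in every library but mature root day 6 replicate 1, where it was 1.03. There CESA2, CESA8, CESA5 and CESA1 stood at 2.58, 2.01, 1.29 and 0.68, and CESA3 and CESA6 at -0.10 and -0.27. The rows named are near to a mean and need not be near to any single member. Within the sets, CESA2 and CESA6 differed by 1.37 and CESA7 and CESA9 by 1.05.

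Other genes of the cellulose pathway were counted by their descriptions. Cellulose synthase-like genes, relatives that make other wall polysaccharides or whose product is less certain, had 33 rows, of which 21 were tested, 0 called higher and 1 lower in the tip over both days, with a median log2 fold change of 0.32. The one called was CSLF7 (LOC_Os10g20260), of a family that makes mixed-linkage glucan, at 5.30 ± 3.49 CPM in tips (SD, n = 6) and 39.9 ± 27.2 CPM in mature roots (SD, n = 4). CSLH1 (LOC_Os10g20090) and CSLA1 (LOC_Os02g09930-ext, described as a mannan synthase) stood at log2 -1.12 and 1.00 and did not pass. COBRA-like proteins, anchored at the cell surface and needed for ordered cellulose deposition, had 0 of 8 tested called and a median of 0.48. The 3 with the smallest p, LOC_Os03g30260-ext, LOC_Os03g30250 and LOC_Os10g35460-ext, had positive values of 1.71 (SE 0.68), 1.96 (SE 0.80) and 1.72 (SE 0.80). The first pair was highest in root tip day 6 replicate 1, at 249 and 239 CPM.

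Sucrose synthases, which can supply UDP-glucose, had 0 of 5 tested called and a median of -0.32. LOC_Os06g09450-ext stood nearest to the threshold, at 468 ± 155 CPM in tips (SD, n = 6) and 814 ± 116 CPM in mature roots (SD, n = 4), with an adjusted p of 0.0514 by edgeR. Endoglucanases, a description that includes the membrane-bound KORRIGAN type needed for cellulose synthesis, had 1 of 17 tested lower in the tip and a median of 0.46. The member called, LOC_Os02g05744, had 3.08 to 7.33 CPM in the tips, 21.0 and 8.71 CPM in mature roots of day 2, and 116 and 35.1 CPM in those of day 6. Its highest library was mature root day 6 replicate 1, as for CESA9.

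Laccases, which polymerise lignin in secondary walls, had 5 of 19 tested lower in the tip and 0 higher, with a median of -1.74. In the tips together LOC_Os11g42200 reached 11 counts, LOC_Os01g61160 10 and LOC_Os03g16610 0, and in mature roots they reached 275, 184 and 81. In mature root day 6 replicate 1 and replicate 2, in this order, they had 9.38 and 27.8, 5.81 and 25.9, and 14.3 and 6.5 CPM. All 26 laccase rows summed to 816 and 814 CPM there. A xylem cysteine proteinase gene, LOC_Os01g42790, of a protease type known from Arabidopsis vessels, had 170.2 CPM in replicate 1 and 12.9 CPM in replicate 2. It had 1.59 and 2.90 CPM in mature roots of day 2 and 1 count in all tips. Rows of the xylem list thus differed in which of these pools was higher. Family 43 glycosyltransferases, a family whose known members act in xylan synthesis, had 0 of 7 tested called and a median of 0.10. Tubulins and tubulin-related genes, whose microtubules guide the CESA complexes, had 3 of 26 tested higher in the tip, 0 lower and a median of 0.49, the direction opposite to that of CESA9. Over all tested rows, 9.02% were called lower and 3.18% higher in the tip in this comparison, 12.2% together, and the median was 0.05.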

How the data were processed

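The 10 libraries comprise 6 of tip and 4 of mature root tissue, all labelled as independent biological replicates. The authors deposited whole-number counts for each row together with exon number and summed exon length, per the file headers; that the counts are not normalized was read from their totals. TopHat 1.3.1 and Cufflinks 1.0.3 are named in the submitters' processing notes, as are Bowtie and SAMtools 0.1.12a. No source used here gives the genome build, the counting step or its use of strand, so antisense reads cannot be told apart. Each CESA member was 1 row, without the ending -ext that other rows carry.

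All tests used edgeR 4.0.16 under R 4.3.3, with filterByExpr on the 4 groups (minimum count 10, minimum total 15), TMM scaling and the quasi-likelihood test with 1 mean per group, fitted to all libraries at once. P-values were adjusted by Benjamini-Hochberg over every row tested and measure the spread between pools. Log2 CPM used a prior count of 2. Intervals and count floors cover counting error only, since no molecular identifiers are named. Alternatives were DESeq2 1.42.0 as a test or for size factors, library totals, other filters on low counts, robust dispersion, replicate number entered as a block, fits restricted to the groups of a comparison, and leaving out single libraries. The code was tested on simulated counts. Members, lists and naming rules were chosen with earlier results of these data known: every member is named, with up to 3 genes of smallest p per list of related genes and the 6 nearest profiles. The marker lists serve to check the tissue labels, and the xylem list was also set beside CESA9 and used to compare the mature root pools of day 6. The xylem list includes the 26 laccase rows. Its 3 genes of smallest p are all named, LOC_Os11g42200 and LOC_Os01g61160 as laccases and LOC_Os01g42790 as a xylem cysteine proteinase. No sequence or coordinates were used.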

Additional observations from a re-analysis of the deposited data

Results flagged for a closer look

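The sets examined were each member and the secondary-wall share, in the 6 tip and in the 4 mature root libraries, 20 in all. Of these, 6 had a library far from the others by Dixon's test. Its rate of about 1 in 20 by chance holds for normally distributed values of 1 group. These sets hold CPM or percent values without log scaling, join both days and are not independent, so that rate does not apply to them. Root tip day 6 replicate 3 stood apart in 3 of them, with 387 CPM of CESA1 (next highest tip 194), 48.9 CPM of CESA4 (next 24.2) and 243 CPM of CESA6 (next 108). Mature root day 6 replicate 1 stood apart with 89.8 CPM of CESA2 (next 10.6) and 638 CPM of CESA8 (next 168). Root tip day 2 replicate 1 stood apart in the share of CESA counts from CESA4, CESA7 and CESA9, at 24.1% (next 11.5%). The change of the tissue difference between days passed for 0 of the 9 members in edgeR's quasi-likelihood test. At an unadjusted p under 0.05 in that test there were 3 members, beside 9.47% of all tested rows, and DESeq2 called 1.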

How the results depend on the processing

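Over both days the number of CESA members called lower in the tip, 1 as reported, was 2 with the DESeq2 test, 0 with the replicate number as a block and 0 to 2 when 1 library was left out. On day 6 it was 3 without the filter on low counts and 3 with DESeq2, where the members added were CESA2 and CESA8. The number on day 6 also moved when either mature root library of that day was left out. For mature root between days and for the change of the tissue difference, 1 member (CESA9) was called without the filter and 1 with DESeq2, against 0. Both settings also raised the number of all rows called in these comparisons, so the added calls say nothing particular about the family. The fit without the filter tested every row with at least 1 count, so its calls are not out of the 19234 rows tested otherwise. With the block CESA1 turned to log2 -0.084 over both days, and the block changed no other call of a member than that of CESA9. Deviations from the group mean were correlated between same-numbered libraries, and 0 of 13 correlations were over 0.1. With 2 mature root libraries a day, their deviations mirror each other, so these are not 13 separate checks and cannot exclude pairing. The labels call the replicates independent, and the numbers were not taken as pairs in the main fit. With 1 library left out, the log2 fold change of tip over mature root ran over both days from -0.025 to 0.48 for CESA1, -1.23 to 0.43 for CESA2, -0.49 to 0.039 for CESA6 and -0.81 to 0.15 for CESA8, and on day 2 from -0.26 to 0.40 for CESA9. Between days it ran from -0.43 to 0.69 for CESA4 in the tip and from -0.19 to 3.11 for CESA2 in mature root, and the change of the tissue difference from -0.77 to 0.35 for CESA7. Of all rows, 611 were higher and 1734 lower in the tip over both days, against 1324 and 2739 without the filter, 1214 and 2355 with DESeq2, and 276 and 990 with the block. On day 6 these were 255 and 1106, against 940 and 2041, 905 and 1836, and 66 and 513, and 30 and 566 with only the groups compared. On day 2 they were 16 and 205, against 487 and 1247, 237 and 797, 9 and 126, and 0 and 4. With 1 library left out they were 98 to 668 and 747 to 1855 over both days, 1 to 251 and 112 to 1143 on day 6 (fewest without mature root day 6 replicate 1), and 0 to 15 and 40 to 308 on day 2, with up to 57 higher and 1 lower between days in mature root and up to 2 lower for the change of the tissue difference. Without the filter 535 and 467 rows were called between days in the tip, 438 and 298 in mature root, and 259 and 295 for the change of the tissue difference. Leaving out a mature root library puts 1 alone in its group, whose spread is then taken from the remaining groups. The secondary-wall share in tips of day 2 was 10.9% to 17.5% with 1 library left out. The causes were not tested. Counts of 11 to 55 for CESA2 in tips limit what can be seen of it.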
